A study of Homo sapiens with 6 samples.

Results

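RNA recovered with PABPC1 from HepG2 cells, a human hepatocellular carcinoma line, was compared with RNA recovered with rabbit IgG across every gene of the deposited comparison. The comparison lists 58302 of the 58302 genes of the series, and 17565 of them carry a deposited p-value. The series holds 6 RNA immunoprecipitation (RIP) libraries, made by pulling a protein down with an antibody on magnetic beads and sequencing the RNA that stays with it. Of these, 2 PABPC1 libraries came from HepG2 cells that overexpress PABPC1. The 2 rabbit IgG libraries came 1 each from cells that overexpress PABPC1 and from cells that overexpress PABPC4, and both were pooled as the control. The remaining pair, a PABPC4 RIP from cells that overexpress PABPC4, is not described here. No library came from cells without an overexpressed protein, and the labels do not say how it was expressed or whether replicates were separate cultures. The scatter between libraries, which only the replicate model below uses, may therefore be technical. Priming was with random primers, so RNA with no poly(A) tail could be sequenced too.

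PABPC1 is the main cytoplasmic poly(A)-binding protein. It coats the 3' tail of mRNA, contacts the cap-binding complex through eIF4G and takes part in both translation and tail shortening. Most nuclear-encoded mRNAs carry such a tail. Replication-dependent histone mRNAs end in a stem-loop in its place, and 7SL RNA (the scaffold of the signal recognition particle), small nuclear RNAs and small nucleolar RNAs end without one. Mitochondrial rRNA and mRNA carry at most short tails that are made and kept inside the mitochondrion, away from the cytoplasm.

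The deposited values are folds and p-values, but they take so few forms that whole reads could be read back from them. Totals were 289217 and 277552 reads in the PABPC1 libraries and 133030 and 94235 in the IgG libraries. Which recovered library is replicate 1 or 2, or which cells an IgG library came from, cannot be told, so libraries are called A and B within each antibody. At this depth a gene with 10 IgG reads is called higher in the authors' deposited table only from 76 PABPC1 reads (3.05-fold). All 25 hepatocyte markers looked at had reads, and albumin mRNA (ALB) stood at 1148 and 1362 RPM (reads per 1000000 library reads) with PABPC1 and at 677 and 509 with IgG. PABPC1 mRNA, the transcript of the protein pulled down, had 595 and 634 RPM in the PABPC1 libraries against 286 and 318 in the IgG libraries. It checks no label, because 1 of the IgG libraries came from cells without the PABPC1 construct and which one cannot be told. The IgG libraries lay close together, from 38 and 30 reads, so neither showed a clear excess of PABPC1 mRNA.

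Nuclear-encoded mRNA took a larger share of the PABPC1 libraries, and mitochondrial rRNA and 7SL RNA a larger share of the IgG libraries. Nuclear-encoded mRNA made up 49.8% and 55.1% of reads in PABPC1 libraries A and B and 36.2% and 37.9% in IgG libraries A and B. Mitochondrial rRNA made up 41.1% and 35.5% with PABPC1 and 56.5% and 54.4% with IgG. Because mitochondrial rRNA is so abundant, its lower share goes with higher shares of other RNA when reads are divided by library totals. Which of them changed in amount was not tested. Each ratio of PABPC1 to IgG is therefore given on 2 scales: over library totals, and relative to the median gene among the 4511 genes with at least 20 reads summed over the 4 libraries. That median gene had a ratio of 1.48 over library totals, and the ratio of single library pairs ran from 1.40 to 1.60. A gene at exactly the median thus stands at 1.48-fold over library totals, and 81.8% of the 4511 genes were above 1 on that scale. Of the 4511, 4329 are nuclear-encoded mRNAs, so a recovery common to most mRNAs does not show relative to the median gene.

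Relative to the median gene, the RNA classes ran from nuclear-encoded mRNA and long non-coding RNA at the top down to 7SL RNA. Nuclear-encoded mRNA summed to 0.954 of the median gene (exact 95% interval 0.947 to 0.962) and long non-coding RNA to 0.950 (0.917 to 0.984), both close to it. Mitochondrial mRNA was lower at 0.837 (0.816 to 0.859), and replication-dependent histone mRNA at 0.747 (0.648 to 0.864). Small nucleolar RNA (0.534, 0.412 to 0.698), small nuclear RNA (0.505, 0.373 to 0.688) and mitochondrial rRNA (0.466, 0.463 to 0.469) were lower again. 7SL RNA with its copies was lowest of these classes at 0.284 (0.265 to 0.304). These intervals cover counting error only. With 2 libraries against 2, an exact permutation test cannot go below p = 0.333, and no test was run on the class shares.

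The 2 scales put mitochondrial and histone mRNA on opposite sides of 1. Over library totals mitochondrial mRNA was 1.24-fold (1.21 to 1.27) and histone mRNA 1.11-fold (0.961 to 1.28), while both were below the median gene. For 7SL RNA the direction held on both scales, with 0.307% and 0.310% of reads in the PABPC1 libraries and 0.695% and 0.775% in the IgG libraries. For small nucleolar and small nuclear RNA the libraries of the antibodies overlapped in share. Small nucleolar RNA made up 0.0290% and 0.0331% with PABPC1 and 0.0398% and 0.0329% with IgG, from 176 and 89 reads in all, so their place in the order rests on few reads.

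**Figure D1:**
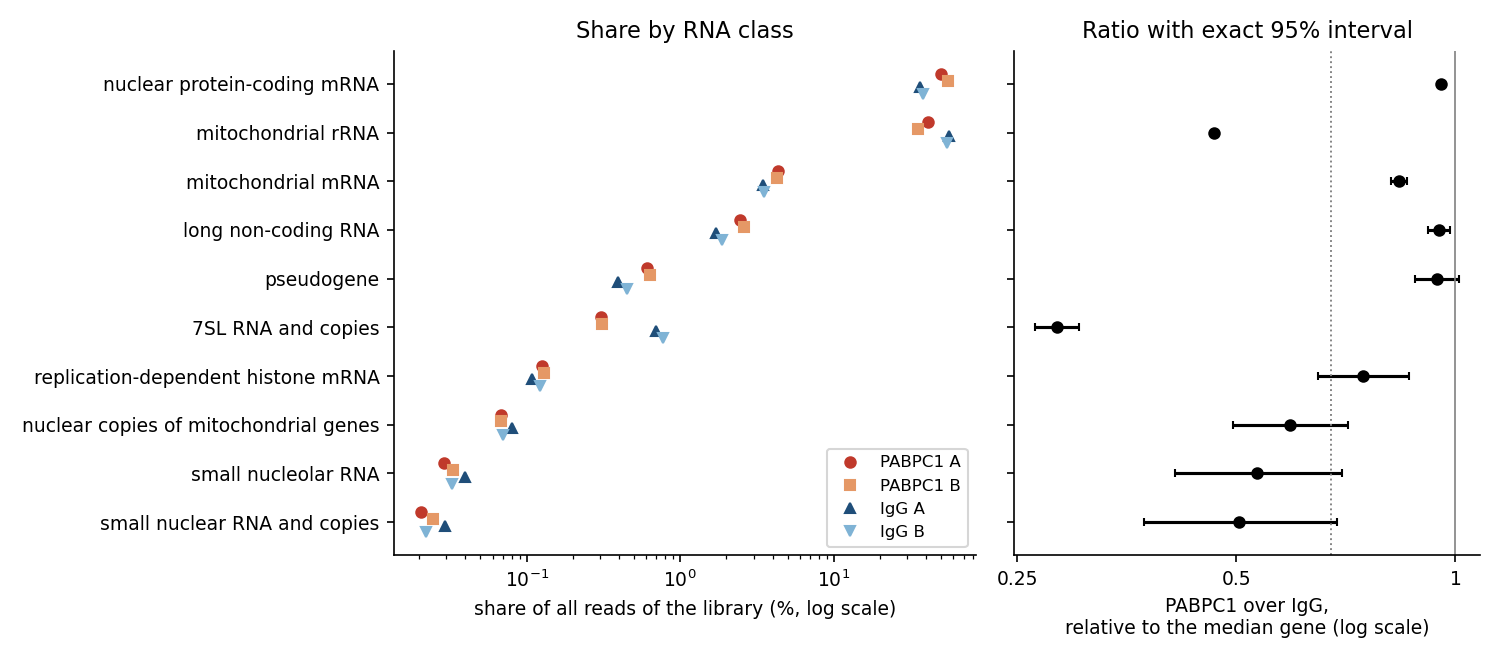
Left, the share of reads (%, log axis) held by each of 10 RNA classes, 1 marker per library. Right, the summed PABPC1 over IgG ratio of each class relative to the median gene (log axis) with its exact 95% interval for counting error; the solid line is the median gene and the dotted line an equal share of library totals. 7SL RNA (0.284) and mitochondrial rRNA (0.466) lie left of the dotted line, and mitochondrial mRNA (0.837) lies between the lines.

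Among the 13 mRNAs made in mitochondria, 11 were called higher in the authors' deposited table, 5 were called lower relative to the median gene, and 11 lay below it. Of all genes with at least 20 reads, 5.21% were called higher in that table and 1.62% lower relative to the median gene. Calls were more frequent among deep genes: of 78 genes with at least 100 IgG reads, 48 and 23 were called in these ways. MT-ND6, a complex I subunit and the one mRNA copied from the other mitochondrial strand, was the lowest of the 13. It stood at 5771 and 5603 RPM with PABPC1 and at 5089 and 5359 with IgG, 0.737 of the median gene (0.689 to 0.789, chi-square adjusted p = 4.0e-16). Its transcript is known to lack a poly(A) tail, and no source used here states whether the counting used strand, so reads from the RNA opposite cannot be told apart from it. MT-ND5 (0.802), MT-ND4 (0.827), MT-CYB (0.799) and MT-CO1 (0.858) were the other members called lower by this chi-square test. In the replicate model MT-ND6 was the 1 mitochondrial mRNA called lower (adjusted p = 0.00679). MT-ND5, MT-ND4 and MT-CO1 did not pass it (replicate-model adjusted p = 0.273, 0.488 and 0.650), nor did MT-CYB. The chi-square calls of MT-ND4 (0.865) and MT-CYB (0.783) were lost without IgG library A. That of MT-CO1 was lost when PABPC1 B (0.921), IgG A (0.828) or IgG B (0.850) was omitted, and that of MT-CYB also on omitting PABPC1 B (0.818). At the other end MT-ATP8, which overlaps MT-ATP6 on one transcript, stood at 1.73 (1.25 to 2.46) and MT-ND4L, which overlaps MT-ND4, at 1.21 (0.889 to 1.66). Neither was called relative to the median gene, and reads in such overlaps could be split between the neighbours.

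Single genes were called in 3 ways, each at an adjusted p under 0.05 after Benjamini-Hochberg correction over all genes tested. The authors' deposited table, a chi-square test on summed reads over library totals, called 235 genes higher (1.34% of 17565) and 34 lower (0.194%). The same test relative to the median gene called 19 higher (0.108% of 17559) and 96 lower (0.547%). Both chi-square tests take each summed read as independent and hold counting error only. Differences between libraries of one antibody exceeded it among genes with at least 200 reads (chi-square per degree of freedom 1.40 for PABPC1 and 1.27 for IgG). The excess was larger among the 66 genes with at least 500 reads (2.55 and 1.73). The chi-square p-values and the intervals of the deepest genes thus leave out the most scatter. A replicate model, limma voom on the reads of all 6 libraries, called 28 higher (0.351% of 7987) and 41 lower (0.513%). The change of scale turned the balance of calls from mostly higher to mostly lower. Of the 235 deposited higher calls, 24 lay below the median gene. All 3 rules agreed on 16 genes higher and 22 lower.

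Between the 4511 genes with at least 20 reads, both PABPC1 libraries exceeded both IgG libraries in 52.7% of genes over library totals and in 22.2% relative to the median gene. Both lay below both IgG libraries in 5.70% and 21.4%. The gene-to-gene spread was modest for most genes, with quartiles at 0.737 and 1.35 of the median gene. Calls depend on single libraries: of the 19 genes called higher relative to the median gene, 16 kept the call without PABPC1 library A, 11 without PABPC1 library B, 6 without IgG library A and 5 without IgG library B. CNBP and ATF4 were the only 2 of the 19 that kept the call whichever of the 4 libraries was left out, while 28 of the 96 lower genes did.

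**Figure D2:**
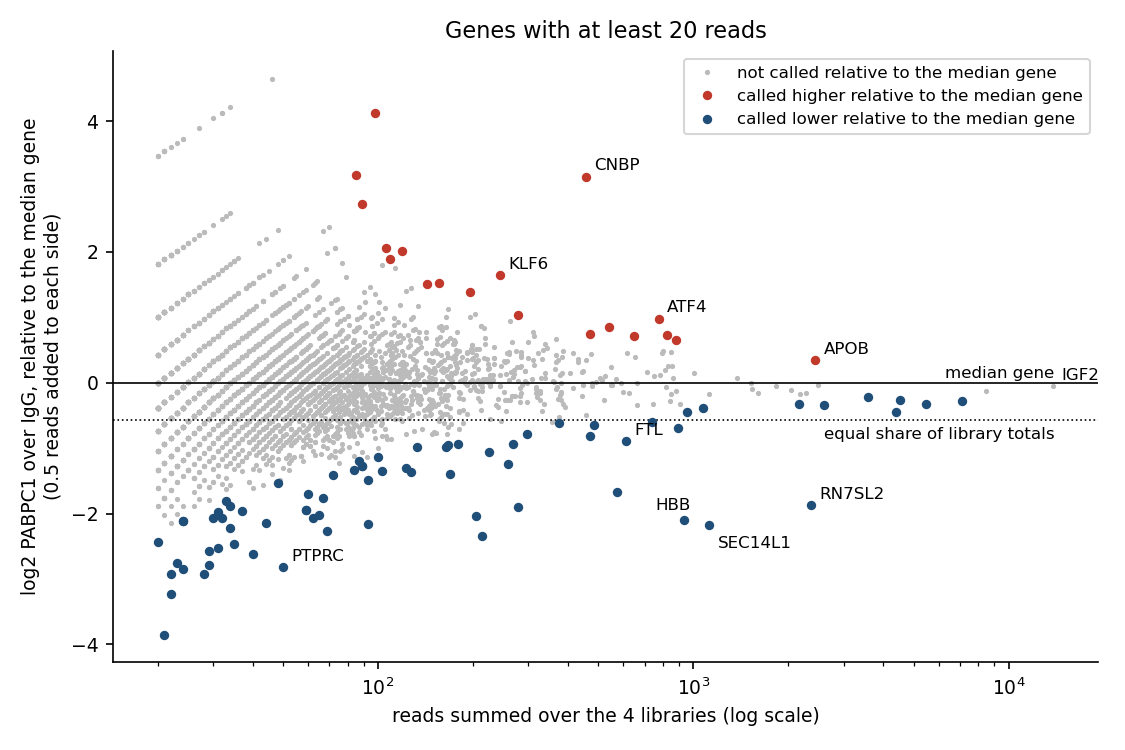
Log2 PABPC1 over IgG relative to the median gene (vertical, with 0.5 reads added to each side) against reads summed over the 4 libraries (log axis), 1 point per gene with at least 20 reads. The solid line marks the median gene and the dotted line equal shares of library totals. CNBP stands apart among the genes called higher, and HBB, SEC14L1 and RN7SL2 lie far below both lines.

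CNBP was the mRNA recovered most clearly with PABPC1. It encodes a zinc-finger protein that binds single-stranded nucleic acids and acts in translation. It had 764 and 800 RPM in the PABPC1 libraries and 67.7 and 42.4 in the IgG libraries, 9.21 times the median gene (5.33 to 17.4, chi-square adjusted p = 2.6e-18). In the replicate model it was higher by 3.23 on the log2 scale (SE 0.40). ATF4, the transcription factor that carries out the integrated stress response, had 1134 and 1279 RPM with PABPC1 and 406 and 414 with IgG. That is 1.98 times the median gene (1.60 to 2.49, chi-square adjusted p = 2.9e-07), and 1.07 on the log2 scale in the replicate model (SE 0.17). For both mRNAs every PABPC1 library was above every IgG library. Relative to the median gene this was so for all 19 genes called higher, so it is no separate support for the calls. The 2 libraries of each antibody lay close together for ATF4.

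Several of the next genes were called on both scales but lost the call relative to the median gene without 1 IgG library. MKI67, which coats mitotic chromosomes, had 1148 and 1355 RPM against 496 and 520, at 1.66 times the median gene (1.36 to 2.04, 1.61 without IgG library A). KLF6, an immediate early transcription factor, had 367 and 425 against 75.2 and 95.5, at 3.19 (1.99 to 5.39, 2.77 without IgG library A). For both, the ratio barely moved when the library was left out and fewer reads remained. Without IgG library B the calls of KTN1 (1.57, then 1.43), GOLGA4 (1.81, then 1.54), RPL5 (1.65, then 1.34) and APOB (1.28, then 1.19) were lost. KTN1 encodes kinectin, an anchor protein of the endoplasmic reticulum, GOLGA4 a golgin of the Golgi network, RPL5 a protein of the large ribosomal subunit and APOB the core apolipoprotein of very-low-density lipoprotein.

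APOB shows how small a difference the deepest mRNAs can carry. It had 3316 and 3790 RPM with PABPC1 and 1947 and 1762 with IgG. For RPL5 the IgG libraries differed from each other, at 481 and 287 RPM, with 920 and 1048 with PABPC1. PABPN1, the nuclear poly(A)-binding protein, stood at 650 and 778 against 338 and 212, 1.68 times the median gene (1.29 to 2.22), and lost its call on omitting PABPC1 B (1.62), IgG A (2.24) or IgG B (1.38).

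Other higher calls rest on few IgG reads. FKBP2, which isomerises prolines in proteins of the endoplasmic reticulum, had 145 and 148 RPM against 7.52 and 10.6, from 83 and 2 reads, at 11.2 times the median gene (3.01 to 94.2). It lost the call without IgG library A (9.22) or B (12.8). LLPH, a nucleolar protein, had 87 of its 97 PABPC1 reads in library B, and its call was lost without that library (5.60) and without either IgG library. Its replicate-model adjusted p was 0.230. NUPR1, a small stress-induced chromatin protein, stood at 2.97 (1.68 to 5.72) and lost the call on omitting PABPC1 A (2.89), IgG A (1.99) or IgG B (4.40). IGF2BP2, an mRNA-binding protein of the IGF2 mRNA family, stood at 2.07 (1.43 to 3.09) and lost it on omitting PABPC1 B or IgG A (1.43). KNOP1 (2.67), SP100 (7.75), UBE3A (4.32), PYGL (4.50), SULT2A1 (3.94) and CAPZB (2.95) make up the 19. Of these 6, KNOP1 lost the call without either IgG library (2.47 and 2.74), and SULT2A1 and CAPZB lost it without any 1 of the 4 libraries. UBE3A (3.44, 3.11 and 5.74) and PYGL (3.92, 11.1 and 3.08) lost it on omitting PABPC1 B, IgG A and IgG B in turn. SP100 lost it without the same 3, at 5.04 (PABPC1 B omitted) and 4.41 (IgG B omitted), and IgG library B held none of its reads.

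Of the 28 genes that the replicate model called higher, 11 had no IgG read. For these only the lower limit of the ratio can be given. RAB11B-AS1, transcribed opposite RAB11B, had 69.2 and 93.7 RPM with PABPC1, and the exact 95% lower limit of its ratio was 3.24 times the median gene. Its chi-square adjusted p relative to the median gene was 0.103, so it did not pass that test. PPP2R5E, a subunit that directs protein phosphatase 2A to its targets, and ACAD10, an acyl-CoA dehydrogenase family member, had lower limits of 2.36 and 2.07 and did not pass it either. Reads of RAB11B itself cannot be told apart from its antisense transcript where the genes overlap.

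The lower side was led by 7SL RNA, haemoglobin mRNA and SEC14L1. RN7SL2, a 7SL gene, had 2002 and 2194 RPM with PABPC1 and 4984 and 5444 with IgG, 0.273 of the median gene (0.252 to 0.296). RN7SL3 (0.314), RN7SL4P (0.268) and RN7SL5P (0.223) went the same way, but these near-identical copies share reads, so the values of single copies are uncertain. SEC14L1, a lipid-transfer family protein, had 885 and 901 against 2285 and 3311, at 0.222 (0.197 to 0.250). All of these were called lower by the 3 rules. Their PABPC1 libraries lay below their IgG libraries throughout. Relative to the median gene that was so for 94 of the 95 genes called lower with reads per library.

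**Figure D3:**
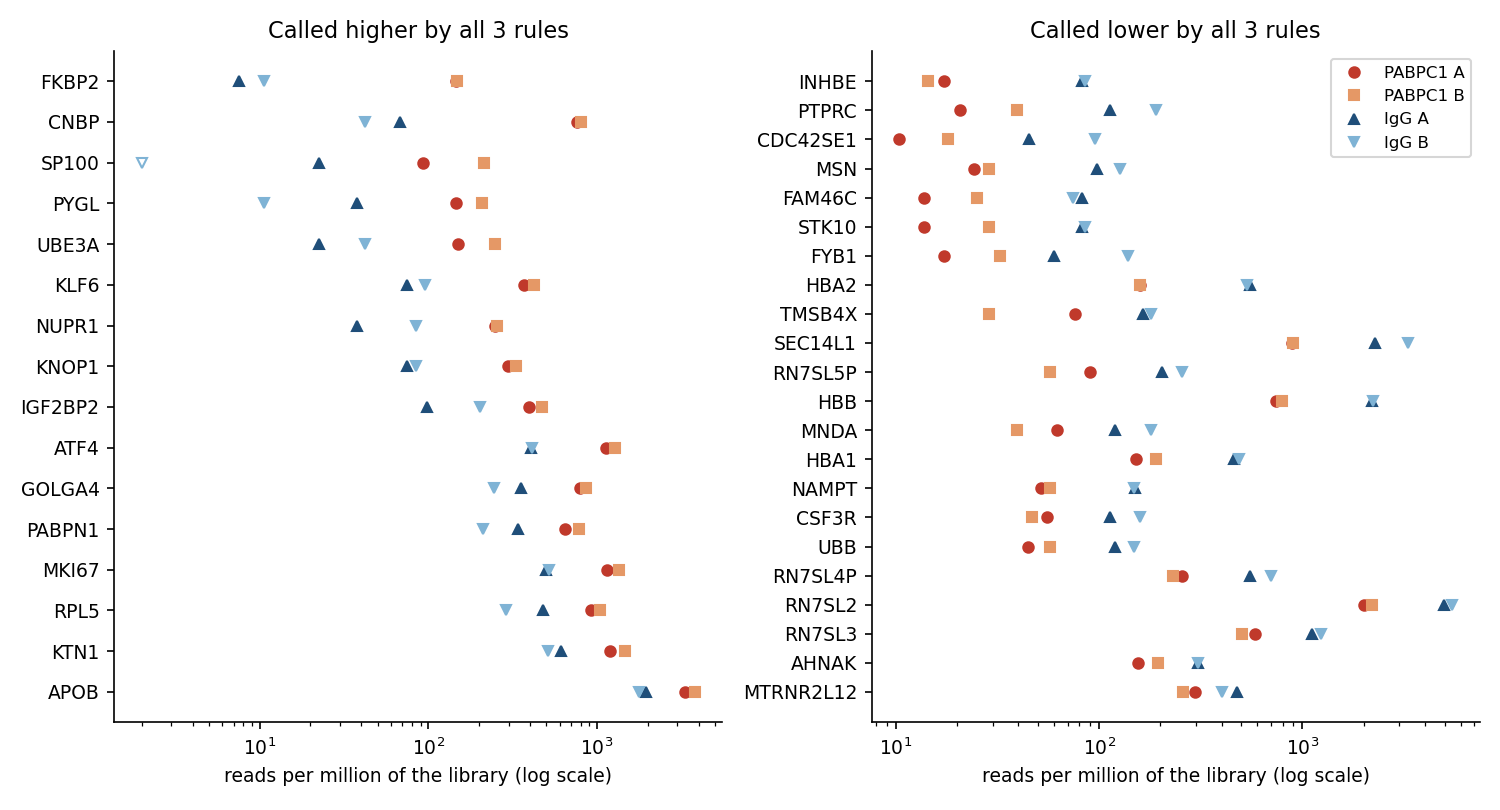
RPM (log axis) in each of the 4 libraries for the 16 genes called higher and the 22 called lower by all 3 rules, sorted by their ratio to the median gene with the strongest at the top. The open marker stands for 0 reads (SP100 in IgG library B) and has no place on the axis. Both PABPC1 libraries lie right of both IgG libraries in the left panel and left of them in the right panel. The genes were called on these same reads.

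Both ferritin transcripts, and single transcripts of the actin cytoskeleton and of antigen presentation, were called lower relative to the median gene, and of those named here only TMSB4X and MSN were also called lower over library totals. FTL, the ferritin light chain, had 754 and 688 RPM with PABPC1 and 925 and 860 with IgG, 0.542 of the median gene (0.457 to 0.644). FTH1, the heavy chain, stood at 0.480 (0.363 to 0.639), a call lost without PABPC1 library B (0.567). Of 33 actin cytoskeleton and adhesion genes with at least 20 reads, 6 were called lower and 1 higher, and the median was -0.04 on the log2 scale. Over all genes with at least 20 reads, 1.62% were called lower and 0.421% higher. The 6 were ACTB (0.567), MYH9 (0.523), TMSB10 (0.507), FLNA (0.417), TMSB4X (0.208) and MSN (0.162), which build or crosslink actin filaments, bind actin monomers or tie filaments to the membrane. TMSB4X and MSN kept their calls whichever library was left out. ACTB (0.601) and MYH9 (0.529) lost theirs without IgG library A, while TMSB10 and FLNA lost theirs also without that library (0.626 and 0.400) or PABPC1 library B (0.609 and 0.480), and FLNA also without IgG library B (0.415).

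Of 12 genes of MHC class I and antigen presentation, 6 had at least 20 reads, with a median of -1.31, and 3 were called lower (0.547% over all 17559 genes tested). B2M, the invariant light chain, had 142 and 122 RPM with PABPC1 against 241 and 212, 0.390 of the median gene (0.270 to 0.566, 0.417 without IgG library A, where the call was lost). HLA-C stood at 0.296 and HLA-E at 0.417. HLA-C lost its call without PABPC1 library A (0.364) or IgG library A (0.324), and HLA-E without any 1 of the 4. The PABPC1 libraries lay below the IgG libraries for all 3, as they did relative to the median gene for nearly all genes called lower. HLA genes resemble each other, so reads could be shared among them.

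Markers of blood cells, which HepG2 cells are not, were present and lower with PABPC1. Of 15 erythrocyte markers 10 had a PABPC1 or IgG read, and HBM, AHSP and EPB42 were among the 5 with none. The list summed to 1127 and 1185 RPM with PABPC1 and to 3315 and 3353 with IgG, nearly all from HBB, HBA1 and HBA2. HBB, the beta chain of haemoglobin, had 740 and 793 against 2203 and 2228 RPM, 0.233 of the median gene (0.205 to 0.266). HBA2 stood at 0.198 and HBA1 at 0.245, and these near-identical genes share reads. ALAS2, the red-cell enzyme that starts haem synthesis, was called lower from 4 and 10 reads, and lost the call on omitting PABPC1 A, PABPC1 B or IgG A (0.0529, 0.168 and 0.111).

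Of 35 leukocyte markers 31 had a read, and CD2, CD3D, CD79A and HLA-DRB1 had none. They summed to 595 and 616 RPM with PABPC1 and to 1173 and 1486 with IgG. Over the 11 with at least 20 reads the median was -1.97, and 8 of the list were called lower relative to the median gene (0.547% over all 17559 genes tested). PTPRC, the leukocyte phosphatase CD45, had 20.7 and 39.6 RPM against 113 and 191, at 0.139 (0.0727 to 0.257). MNDA (0.238), a nuclear protein of myeloid cells, and CSF3R (0.261), the granulocyte growth factor receptor, kept their calls in every such omission, as did PTPRC. LYZ (0.769, 0.509 to 1.19) and CD74 (0.777, 0.336 to 2.01) were not called. Among fibroblast and matrix genes COL6A2 (0.0636) and COL1A1 (0.101) were called lower, while COL6A3 stood at 4.39 (1.64 to 16.6) and was not called relative to the median gene. Together erythrocyte and leukocyte markers gave 12 of the 96 lower calls, and 71 of the 96 were on none of the marker, antigen presentation, small structural RNA or mitochondrial lists. The source of the blood-cell transcripts and their part in the other lower calls were not tested.

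Among mRNAs of the translation machinery, most of those for ribosomal proteins lay below the median gene, and those for translation factors lay on both sides of it. Of 66 cytosolic ribosomal protein mRNAs with at least 20 reads, 22 lay above the median gene and the median was -0.20 on the log2 scale (-0.28 to -0.17 when 1 library was left out), against 0.00 for all genes. Of the 82 with a p-value, 9 were called higher in the authors' deposited table. That table called 1.34% of all 17565 genes higher, and 5.21% of those with at least 20 reads. Its higher calls were more frequent among deep genes, 198 of 2158 with at least 10 IgG reads and 125 of 427 with at least 30. Relative to the median gene RPL5 was called higher, and RPL19 and RPS2 lower. RPL19 had 1065 and 1135 RPM with PABPC1 against 1188 and 1210, 0.619 of the median gene (0.536 to 0.716), and kept its call in each omission. RPS2 stood at 0.654 (0.521 to 0.824) and lost it in each. Many processed pseudogenes resemble these mRNAs, so their counts are uncertain.

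Ribosomal protein mRNAs and those of several translation factors begin with a 5' terminal oligopyrimidine (TOP) tract, a C at the first base followed by further C or T, through which LARP1 and mTOR control their translation. The starts of 5 genes are shown. EEF2 and TPT1 carry the tract, and CNBP and ATF4 are the mRNAs whose higher call held in every omission. RPL19 is the ribosomal protein mRNA whose lower call held in every omission, and neither of its 2 listed starts opens with such a run. Its second listed start lies inside a stretch of C and T that begins before it, so this hangs on the exact base listed. Each line holds 10 bases before and 20 from the annotated start, from the RefSeq table of GRCh38.p14, 5' to 3' on the gene's strand, with capitals for the start base and any C or T that follow a starting C.
EEF2: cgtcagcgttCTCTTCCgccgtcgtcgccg
TPT1: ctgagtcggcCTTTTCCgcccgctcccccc
RPL19 first start: tctccccttcGcagataatgggaggagccg
RPL19 second start: agctctttccTttcgctgctgcggccgcag
CNBP: gtggggccgtGtgcagacccgcgtgtggcg
ATF4: cggccacggcAgccatttctactttgcccg
These windows lie at chr19:3985444-3985473 (minus strand), chr13:45341164-45341193 (minus), chr17:39200273-39200302 and chr17:39200313-39200342 (plus), chr3:129183877-129183906 (minus) and chr22:39520549-39520578 (plus), which is the first of 2 starts listed for ATF4.

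EEF2, the elongation factor that moves the ribosome along, opens with a run of 7 pyrimidines. It had 1082 and 1387 RPM with PABPC1 and 1015 and 1295 with IgG, so the libraries overlapped over library totals, and stood at 0.734 of the median gene (0.635 to 0.850). Its lower call was lost without PABPC1 library A (0.793) or IgG library B (0.795). TPT1, a translationally controlled protein with the same length of run, stood at 1.06 (0.655 to 1.77). A start with a C and at least 4 further pyrimidines was looked for at every listed start of a gene. It was found in 73.8% of ribosomal protein genes with a listed start and 80.0% of the other TOP genes. This compares with 5.14% of all genes with a listed start and 9.03% of protein-coding genes with at least 20 reads. Genes with such a start had a median of -0.01 and genes without it 0.01, so the tract at the annotated start did not go with a shift in recovery. Of deposited calls among protein-coding genes with a listed start, 13.9% of the higher (24 of 173) and 0 of 19 lower had it. Relative to the median gene 0 of 15 higher and 3.64% of the lower calls (2 of 55) had it.

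The other TOP mRNAs had a median of 0.36 over 19 genes, and of 0.05 to 0.20 over the same genes when 1 library was left out. Among them, EIF4B, a helicase cofactor of initiation, stood at 1.37 (1.14 to 1.67), NPM1, a nucleolar chaperone of ribosome assembly, at 1.31 (1.07 to 1.63), and PABPC1 at 1.38 (1.06 to 1.82). Over library totals 7 of the 19 with at least 20 reads were called higher, against 5.21% of all genes with at least 20 reads. Such calls were more frequent among deep genes: of 427 genes with at least 30 IgG reads, 125 were called higher. Relative to the median gene EEF2 alone was called, lower. Of 44 translation factors with at least 20 reads, 23 were above the median gene, with a median of 0.03. EIF3A, the largest subunit of the eIF3 complex, had 2424 and 2627 RPM with PABPC1 against 1714 and 1825, a deposited call that sits at 0.966 of the median gene (0.864 to 1.08). Poly(A)-binding proteins and their partners had a median of 0.15 over 34 genes, with PABPN1 the 1 call relative to the median gene.

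Most genes of the nucleolus and of the cell cycle with at least 20 reads lay above the median gene. Of 32 nucleolar and ribosome biogenesis genes with at least 20 reads, 22 were above it, with a median of 0.41, while the summed reads of the list stood at 0.989 of the median gene. The called members went both ways: LLPH was higher, and NCL (nucleolin) was lower at 0.790 (0.723 to 0.864) with 3388 and 3462 RPM against 2616 and 3353, a call lost without IgG library B (0.858). Of 37 cell cycle genes 25 were above the median gene, with a median of 0.32 and summed reads at 1.33 of the median gene. MKI67 was the 1 called. TOP2A, the topoisomerase of dividing cells, stood at 1.94 (1.34 to 2.91), CENPF, a kinetochore protein, at 1.60 (1.19 to 2.18) and SMC4, a condensin subunit, at 3.71 (1.73 to 9.47), each with a chi-square adjusted p over the threshold (0.0641, 0.163 and 0.0690). Of 75 mitochondrial ribosomal protein mRNAs with a p-value only 11 had at least 20 reads, and 8 of these were above it. Their median was 0.95, but the whole list, from 841 and 188 reads, summed to 1.21 of the median gene. The read minimum counts reads of both antibodies together, and the PABPC1 libraries are deeper. Sparse genes therefore pass it more easily where PABPC1 is high. None was called relative to the median gene, and without 1 library the median of 0.95 ran from 0.44 to 1.13.

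Liver mRNAs stood near the median gene. Plasma proteins secreted by liver had a median of 0.05 over 35 genes, and hepatocyte markers -0.09 over 21. ALB was called higher in the authors' deposited table and stood at 1.39 of the median gene (1.16 to 1.68, chi-square adjusted p = 0.0626). FN1, fibronectin, stood at 0.924 (0.833 to 1.03), and IGF2, the fetal growth factor that HepG2 makes in quantity, at 0.963 (0.925 to 1.00), with 17074 and 21167 RPM against 12418 and 14676. All 3 are deposited higher calls, and for FN1 and IGF2 the ratio relative to the median gene is below 1. APOA2, a small apolipoprotein, was called lower at 0.523 (0.381 to 0.724), which was lost on omitting PABPC1 B (0.569), IgG A (0.468) or IgG B (0.550). INHBE, a secreted hepatokine of the activin family, was called lower by all 3 rules, from 9 PABPC1 and 19 IgG reads (0.128, 0.0510 to 0.297).

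Lists of housekeeping functions showed no clear lean. The median was 0.00 for hnRNP and splicing factors (49 genes), 0.13 for DEAD-box and DEAH-box helicases (26), -0.10 for aminoacyl-tRNA synthetases (18), 0.25 for nuclear-encoded oxidative phosphorylation (19), 0.03 for cytosolic chaperones (28), 0.02 for glycolysis (14) and -0.15 for proteasome subunits (23). None of these had a call relative to the median gene. Endoplasmic reticulum folding genes had a median of 0.16 over 30, with FKBP2 higher and CALR, the chaperone calreticulin, lower at 0.765 (0.667 to 0.879). The CALR call was lost on omitting PABPC1 A (0.791), PABPC1 B (0.747) or IgG B (0.805). Cytoplasmic mRNA-binding proteins had a median of -0.08 over 26, with CNBP and IGF2BP2 called higher, while YBX1, the abundant cold-shock mRNA packaging protein, stood at 0.977 (0.887 to 1.08).

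Integrated stress response genes had a median of -0.11 over 19, with ATF4 and NUPR1 called higher. The direction of the list depended on the measure, since its summed reads stood at 1.21 of the median gene and its median was 0.22 over members with at least 50 reads. Immediate early and short-lived mRNAs had a median of -0.38 over 22, with KLF6 the 1 call, and MYC had 86.4 and 133 RPM against 90.2 and 106, at 0.762 (0.462 to 1.30). Cholesterol and fatty acid synthesis (0.08 over 18), solute carriers (0.08 over 54) and C2H2 zinc finger genes named ZNF (0.06 over 68) had no call relative to the median gene. Enzymes of xenobiotic and alcohol metabolism (-0.21 over 21) had SULT2A1 higher and EPHX1 lower, the latter from 8 and 11 reads. The 9 apolipoprotein and lipoprotein assembly genes had a median of -0.47, with APOB higher and APOA2 lower, and it ran from -0.81 to 0.22 when 1 library was left out.

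**Figure D4:**
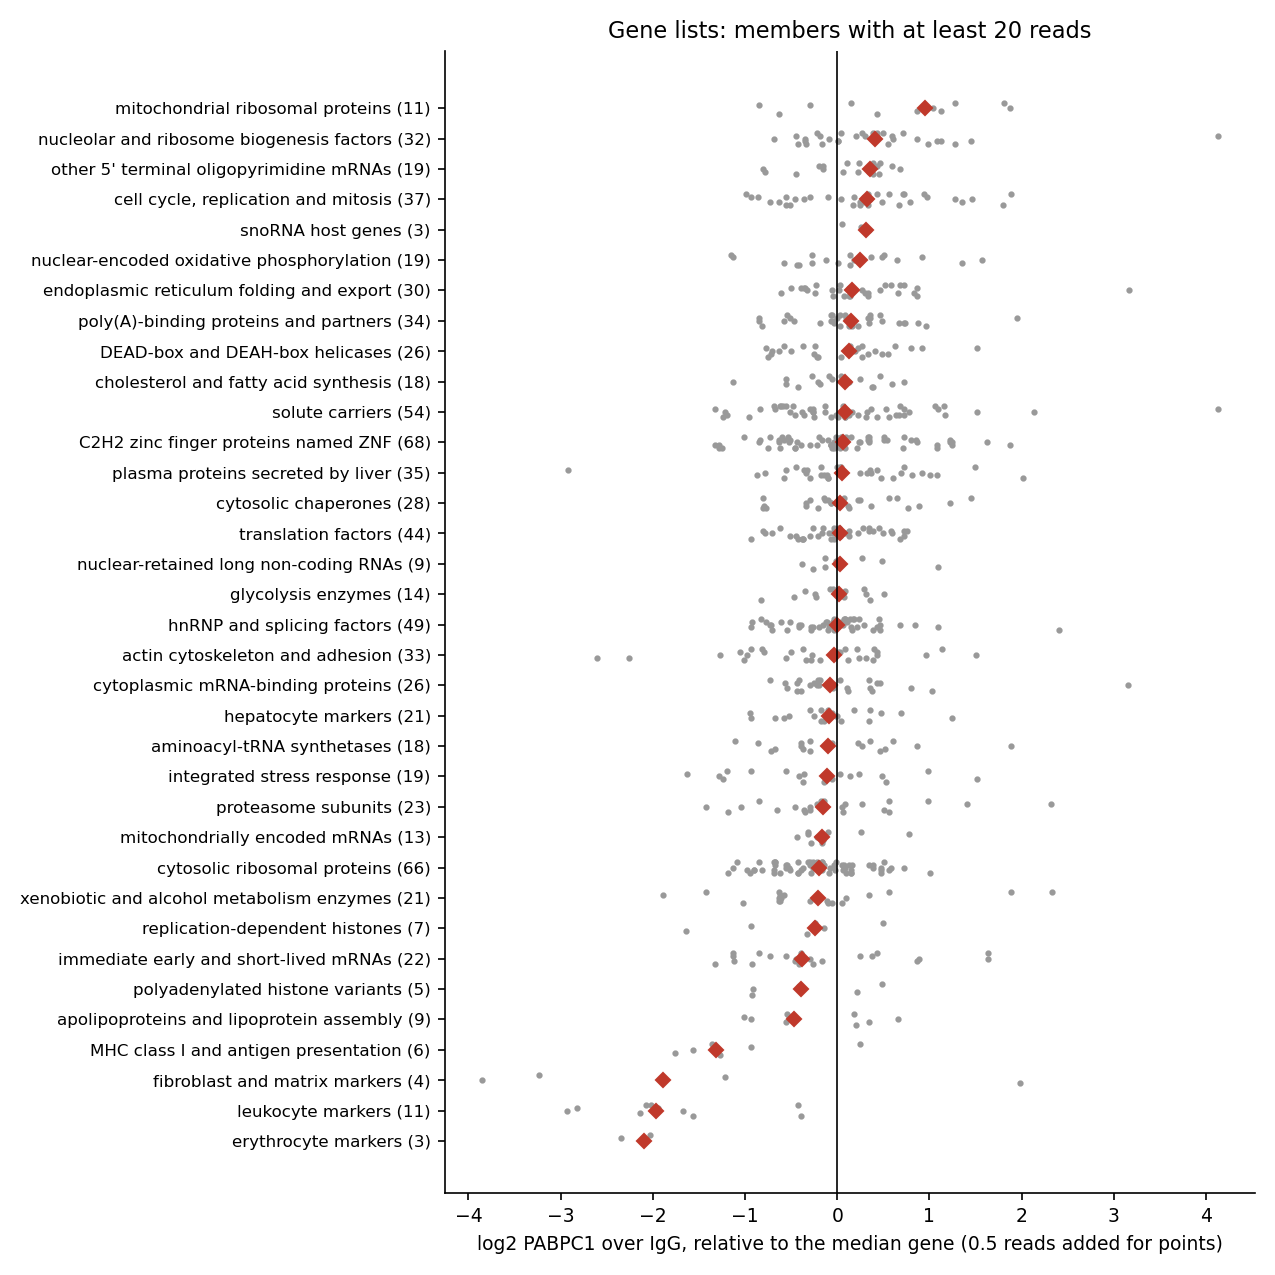
Log2 PABPC1 over IgG relative to the median gene for members with at least 20 reads of each gene list (grey points, with 0.5 reads added to each side), with the list's median as a diamond and the number of members in brackets. Lists with fewer than 3 such members are not drawn. The blood-cell, fibroblast and MHC class I lists lie between -2.10 and -1.31, and the other medians drawn lie between -0.47 and 0.95.

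Nuclear-retained long non-coding RNAs lay on both sides of the median gene. MALAT1, which ends in a triple helix in place of a poly(A) tail, had 11255 and 11868 RPM with PABPC1 and 8179 and 9009 with IgG, at 0.914 of the median gene (0.868 to 0.962, chi-square adjusted p = 0.0659). NEAT1, the scaffold of paraspeckles, had 5923 and 6186 against 4781 and 4988. It was called higher over library totals and lower relative to the median gene, at 0.838 (0.783 to 0.898, 0.867 without PABPC1 library B, where that call was lost). KCNQ1OT1, an imprinted antisense transcript, stood at 1.42 (1.08 to 1.89). Over 9 such RNAs the median was 0.03, and over all 46 long non-coding RNAs with at least 20 reads it was 0.31, with 36 above the median gene. Their sum lay below it (0.950), and MALAT1 and NEAT1 together hold most of the summed reads.

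Untailed histone mRNAs can be set beside tailed ones. Of 7 replication-dependent histone genes with at least 20 reads 1 lay above the median gene, with a median of -0.24, and HIST1H1E, a linker histone, had 484 and 555 RPM against 361 and 414, at 0.913 (0.717 to 1.17). Summed over the whole list they stood at 0.747 of the median gene. The 5 polyadenylated histone variants with at least 20 reads had a median of -0.39, but the whole list summed to 1.10, and H1F0, a tailed linker histone, stood at 1.41 (1.16 to 1.71) with 1210 and 1160 against 609 and 509. None was called relative to the median gene, and H1F0 was called higher in the authors' deposited table. Among small structural RNAs, SNORD3A (U3 small nucleolar RNA) stood at 0.135 (0.0501 to 0.335, 0.246 without IgG library B, where the call was lost) and VTRNA1-1, a vault RNA, at 0.108 (0.0247 to 0.375) from 4 and 10 reads. The latter lost its call on omitting PABPC1 A (0.0529), PABPC1 B (0.168) or IgG B (0.123). RNAs this short may be counted in part only, which was not tested.

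Gene length went with recovery only slightly. Across 5 equal bins of protein-coding genes with at least 20 reads, ordered by the exonic length implied by the deposited values, the median relative to the median gene was -0.08, 0.01, 0.03, 0.02 and 0.04 from shortest to longest. The quartiles of each bin, such as -0.52 and 0.43 in the shortest, are far wider than the difference between bins. Lower calls relative to the median gene numbered 24 in the shortest bin and between 7 and 10 in each of the others.

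The ratios repeated between libraries only for well-covered genes. Setting PABPC1 A over IgG A against PABPC1 B over IgG B, which share no library, the Pearson correlation across genes was 0.36 over 1777 genes with at least 50 reads, 0.77 over 242 genes with at least 200 and 0.92 over 66 genes with at least 500. Genes are not independent replicates, so this is a description. Over the 242 genes, differences between PABPC1 libraries had a chi-square per degree of freedom of 1.40, between IgG libraries of 1.27 and between antibodies of 17.0. As a mean over these genes, the difference between antibodies was thus above that between libraries of one antibody. It sets summed pairs of libraries against each other, so it rests on more reads. Deep genes far from the median gene, such as RN7SL2, SEC14L1 and HBB, weigh heavily in it.

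**Figure D5:**
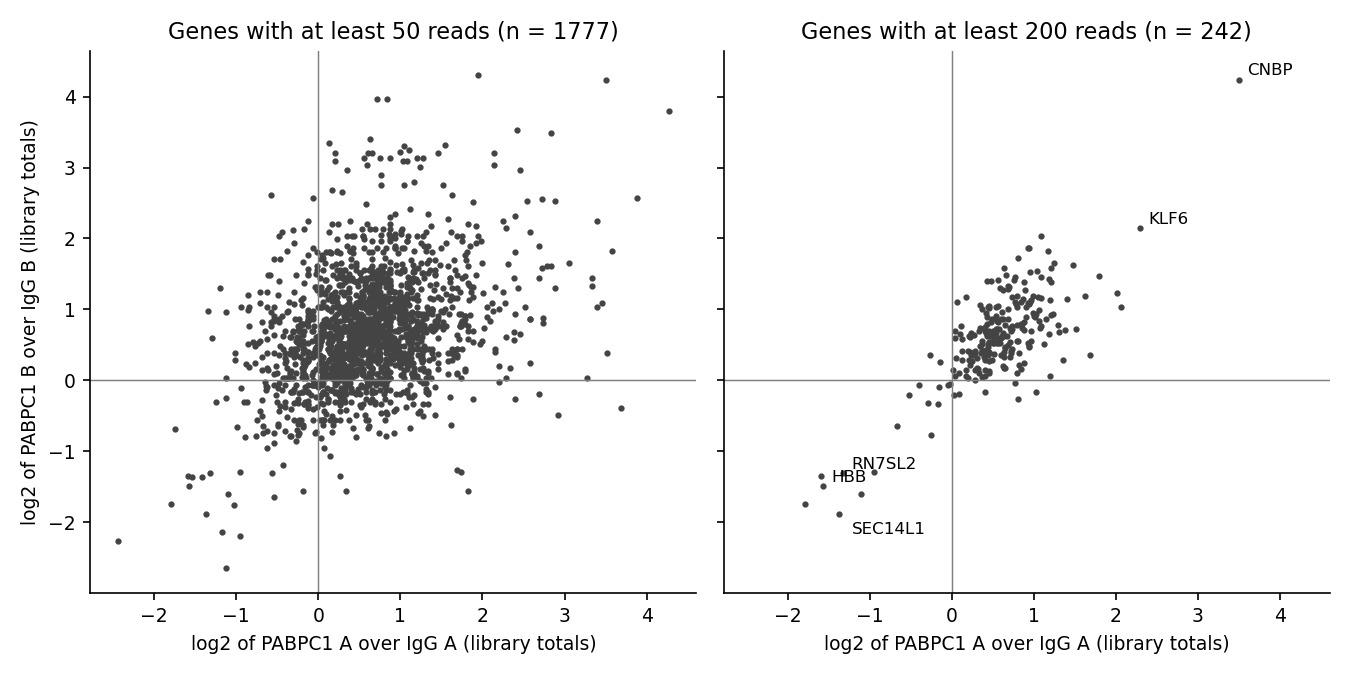
Log2 of PABPC1 A over IgG A (horizontal) against PABPC1 B over IgG B (vertical), both over library totals, for genes with reads in all 4 libraries and at least 50 reads (left, 1777 genes) or 200 reads (right, 242 genes). The cloud narrows to a diagonal on the right, with CNBP and KLF6 at the upper end and HBB, SEC14L1 and RN7SL2 at the lower end.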

How the data were processed

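HepG2 RIP libraries (2 PABPC1, 2 rabbit IgG, 2 PABPC4) were sequenced. Among tools, featureCounts 2.0.1, STAR 2.7.10a and Bowtie2 2.4.1 are listed with GRCh38/hg38 per the submitters' processing notes, and strandedness of counting was not given in the sources used here. Per the file headers, the authors deposited a fold per gene, a p-value and its Benjamini-Hochberg adjusted p-value, with 0 columns of single libraries. The deposited folds and p-values were found, from their values, to be ratios of mean RPKM with 0.005 RPKM added to the IgG mean, and chi-square tests with Yates' correction on summed reads. From these, whole reads were recovered for 17559 of 17565 genes. The recomputed folds differed from the deposited ones by at most 5.1e-15 in relative terms, and implied gene lengths were whole within 2e-05 for 11017 of 11017 genes, against 0 with IgG totals shifted by 1 read. The other 6 genes, MT-RNR1 and MT-RNR2 among them, stayed unresolved, and mitochondrial rRNA was taken as the remainder of each total, so its IgG shares include up to 524 reads not assigned to a library.

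The chi-square test was repeated with the IgG total rescaled so that the median gene with at least 20 reads has a ratio of 1. limma 3.58.1 (voom, median-of-ratios scaling, R 4.3.3) was fitted to the 6 libraries with 3 groups, for genes with at least 10 reads in 2 libraries. The PABPC4 libraries entered the read minimum, the scaling and the estimate of the spread, but not the contrast. On the 4 libraries alone 3177 genes passed the minimum in place of 7987. Ratios carry exact conditional binomial 95% intervals for counting error, computed with Python 3.11.15 and scipy 1.17.1. RNA classes and starts came from RefSeq tables matched by symbol, name or synonym, with 15.1% of genes unmatched. Recovery and tests were tested on simulated data.

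The members and the 41 gene lists were chosen with earlier results of these data known. Named genes were the 12 with the smallest p in each direction by each of the 3 rules, up to 3 called and the 2 most abundant members of each list, the 3 most abundant genes of each non-coding class, and PABPC1, PABPC4 and MYC. ACTB, ALAS2, APOA2, CD74, EPHX1, FLNA, FTH1, HLA-C, INHBE, MT-CYB, MT-ND4L, MYH9, PYGL, RPS2, SMC4, TMSB10, TPT1 and UBE3A were chosen after their values were seen. Alternatives were other totals, Fisher's exact test, other read minimums, other model settings and leaving out each library.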

Additional observations from a re-analysis of the deposited data

How the results depend on the processing

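Calls depended on the scale more than on the test. With totals over nuclear-encoded genes the authors' deposited table's test called 26 genes higher and 73 lower (main 235 and 34), and with only genes of at least 20 reads 372 higher. Relative to the median gene, median-of-ratios scaling gave 36 higher and 52 lower (main 19 and 96), Fisher's exact test 31 higher and the restriction to 20 reads 33 higher. The replicate model gave 362 higher with library totals (main 28), and 101 lower on the 4 libraries alone (main 41). Counted outside mitochondrial rRNA, class ratios were 1.02 for nuclear mRNA, 1.02 for long non-coding RNA, 0.304 for 7SL RNA, 0.573 for small nucleolar and 0.541 for small nuclear RNA, and fell below 1 for mitochondrial (0.898) and histone mRNA (0.801). Leaving out 1 library gave 49 to 253 higher and 15 to 25 lower calls over library totals, 6 to 19 and 49 to 84 relative to the median gene, and 0 to 8 and 2 to 39 in the replicate model. Without PABPC1 library A or B the model called 0 higher, with 343 at an unadjusted p under 0.05 in each case. Class ratios then ran from 0.779 to 0.944 for small nucleolar and 0.764 to 1.01 for small nuclear RNA. List medians (log2) ran, for long non-coding RNA 0.25 to 0.37, cytosolic ribosomal proteins -0.28 to -0.17, other 5' terminal oligopyrimidine mRNAs 0.05 to 0.20, translation factors -0.05 to 0.01, poly(A)-binding proteins and partners -0.05 to 0.19, cytoplasmic mRNA-binding proteins -0.13 to 0.13, hnRNP and splicing factors -0.06 to 0.03, DEAD-box and DEAH-box helicases -0.16 to 0.16, nucleolar and ribosome biogenesis factors 0.23 to 0.42, aminoacyl-tRNA synthetases -0.16 to 0.20, nuclear-encoded oxidative phosphorylation 0.11 to 0.18, mitochondrial ribosomal proteins 0.44 to 1.13, cytosolic chaperones -0.04 to 0.22, endoplasmic reticulum folding and export 0.20 to 0.25, integrated stress response -0.31 to -0.14, plasma proteins secreted by liver -0.04 to 0.10, apolipoproteins and lipoprotein assembly -0.81 to 0.22, cholesterol and fatty acid synthesis -0.09 to 0.08, xenobiotic and alcohol metabolism enzymes -0.53 to 0.00, C2H2 zinc finger proteins named ZNF 0.00 to 0.12, replication-dependent histones -0.48 to -0.12, nuclear-retained long non-coding RNAs -0.04 to 0.04, actin cytoskeleton and adhesion -0.30 to -0.01, MHC class I and antigen presentation -1.34 to -1.22, hepatocyte markers -0.18 to -0.01. With at least 50 reads the medians were 0.14 for long non-coding RNA, -0.33 for pseudogenes, -0.04 for hnRNP and splicing factors, 0.32 for nucleolar factors, 0.30 for aminoacyl-tRNA synthetases, -0.28 for oxidative phosphorylation, 0.02 for endoplasmic reticulum folding, 0.22 for integrated stress response, -0.02 for plasma proteins, 0.17 for apolipoproteins, -0.22 for cholesterol synthesis, -0.08 for nuclear-retained long non-coding RNAs and -0.15 for actin genes. The longest minus shortest length bin was 0.15 in place of 0.12. The cause of these shifts was not tested. No paired analysis was possible because recovered libraries carry no replicate number.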
